A study of Mus musculus with 20 samples.

Results

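Transcripts of macrophages and monocytes were followed in RNA of endothelial cells sorted from mouse skeletal muscle. The members are 35 listed genes: complement and Fc receptor genes, leukocyte adaptors, class II antigen presentation genes, lysosomal genes, surface receptors and secreted factors. They were picked from earlier results of these same libraries, so their levels and differences are descriptions here and carry no test. The tables hold 42374 genes, of which 13971 had enough counts to be tested. Of the 35 members, 33 were among them, and Cd52 and Aif1 were not.

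The cells were CD31-positive and CD45-negative and came from C57BL/6N mice. Their source was 1 of 2 muscles: the soleus, labelled oxidative, or the extensor digitorum longus, labelled glycolytic. Donor mice had either an intact Atf4 gene or an endothelial-specific Atf4-/- genotype, here Atf4 ECKO. All received 1 mg tamoxifen daily for 5 days at 8 to 10 weeks of age, and at least 7 days passed before experiments. The wild type controls were littermates without Cre that had the same tamoxifen. Each of the 4 groups (oxidative wild type, glycolytic wild type, oxidative Atf4 ECKO, glycolytic Atf4 ECKO) had 5 libraries. The sources used here do not name the promoter that drives Cre. How many animals stand behind a library is not stated either, so p-values reflect no more than library-to-library spread, which may be technical.

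Macrophages and monocytes are white blood cells that engulf particles and present antigen. CD45, encoded by Ptprc, is the surface protein shared by white blood cells, and a sort for cells without it is meant to leave them out. Macrophages live beside vessels in muscle, take up debris through complement and Fc receptors, signal through the adaptors Tyrobp and Fcer1g, digest the cargo in lysosomes and can display it on class II molecules. Their gene programme depends on the transcription factor PU.1, encoded by Spi1, and on the growth factor receptor Csf1r. Class II genes share a regulatory module in their promoters, made of an X box and a Y box, through which the coactivator CIITA acts.

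Promoter sequences of members were searched for short motifs, and a link between these motifs and the members' levels was not tested. RefSeq promoters on GRCm38.p6 were found for 26 of the 35 members, in 31 sequences of 250 bases before to 50 bases after the start. The 4 sequences below are the 250 bases upstream of the start, 5′ to 3′ on the gene's strand. Capitals mark the X box letters CTNGCAACT and the Y box letters CTGATTGG in the class II genes H2-Aa (chr17:34287824-34288073, minus strand) and H2-Eb1 (chr17:34305617-34305866, plus strand, of a gene that overlaps the antisense gene Gm20513). They mark the PU.1 core GAGGAA, or its reverse complement, in C1qb (chr4:136886201-136886450, minus strand) and Itgam (chr7:128062390-128062639, plus strand). C1qb and Itgam were low outside oxidative wild type but do not represent all such members. Gpnmb, Ccl6 and Mpeg1 were low there too and lacked this core, while Spp1, not low in wild type glycolytic muscle, carried it.
H2-Aa: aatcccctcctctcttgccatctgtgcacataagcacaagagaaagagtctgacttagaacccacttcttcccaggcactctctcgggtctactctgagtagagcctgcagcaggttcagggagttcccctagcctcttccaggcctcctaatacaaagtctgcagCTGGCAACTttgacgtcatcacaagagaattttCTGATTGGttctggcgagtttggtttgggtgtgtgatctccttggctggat
H2-Eb1: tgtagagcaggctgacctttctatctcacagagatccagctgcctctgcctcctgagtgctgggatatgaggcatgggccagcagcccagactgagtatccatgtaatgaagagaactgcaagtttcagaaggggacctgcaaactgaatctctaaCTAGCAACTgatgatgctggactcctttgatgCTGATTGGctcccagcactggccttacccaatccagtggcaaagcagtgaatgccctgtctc
C1qb: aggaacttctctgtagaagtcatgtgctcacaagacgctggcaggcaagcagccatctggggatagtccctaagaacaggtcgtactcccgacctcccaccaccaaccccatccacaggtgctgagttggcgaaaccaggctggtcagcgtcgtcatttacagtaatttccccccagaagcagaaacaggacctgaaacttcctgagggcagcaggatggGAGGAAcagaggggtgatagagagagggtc
Itgam: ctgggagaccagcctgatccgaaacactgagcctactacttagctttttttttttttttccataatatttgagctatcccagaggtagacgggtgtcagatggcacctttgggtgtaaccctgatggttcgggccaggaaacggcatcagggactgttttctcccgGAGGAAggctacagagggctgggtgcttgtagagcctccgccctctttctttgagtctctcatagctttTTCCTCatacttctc

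Both strands were searched over the 300 bases of each sequence. The X box letters were chosen after reading H2-Aa and H2-Eb1, so their presence there is not a finding. They occurred in 3 of the 31 member sequences (H2-Aa, H2-Eb1 and Saa3) and in 0.898% of all 32851 promoters. The Y box was in 3 member sequences (H2-Aa, H2-Eb1 and Spp1) and in 4.1% of all promoters. GAGGAA was in 13 member sequences, belonging to 12 genes, and in 28.3% of all promoters. Its longer form GAGGAAGT was in 4 (C1qc, Cd53, Ctss, Spp1) against 3.2% of all promoters. TGANTCA, bound by AP-1, was in Ccl9, Cd68 and Gpnmb against 7.81% of all, while TGATGCAA, the element read by ATF4 with C/EBP proteins, and TCACGTG, the M-box, were in 0 member sequences against 0.895% and 3.77%. A match describes letters and is not a measured binding site.

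Levels are given as CPM, a gene's counts relative to the TMM-adjusted total of its library, and a log2 difference is the coefficient of 1 edgeR fit to all 20 libraries with its standard error (SE). A call is an adjusted p under 0.05 in that fit, and for members it only labels a value. Libraries held between 8013223 and 21720127 counts. Atf4 was between 5.79 and 8.7 CPM in the 10 Atf4 ECKO libraries and between 243 and 589 CPM in the 10 wild type libraries. The endothelial genes Pecam1, which encodes CD31, and Cdh5 averaged at least 1433 CPM and 764 CPM in every group. Y-linked RNA was present in all wild type libraries and in oxidative Atf4 ECKO libraries 1 to 3, at 56.6%, 57.5% and 28.2% of the oxidative wild type mean, and was at most 1.35% of it in oxidative Atf4 ECKO libraries 4 and 5 and in all glycolytic Atf4 ECKO libraries. Xist, an RNA transcribed in females, reached 18.6, 18 and 43.8 CPM in oxidative Atf4 ECKO libraries 1 to 3, which thus held both Y-linked RNA and Xist. It was higher in oxidative Atf4 ECKO libraries 4 and 5, at 81.5 and 76.2 CPM, and between 59.3 and 66.4 CPM in glycolytic Atf4 ECKO. No wild type library exceeded 0.274 CPM of Xist. Sex and genotype therefore cannot be told apart in glycolytic muscle, and no oxidative Atf4 ECKO library matched wild type in sex-linked RNA. Libraries 1 to 3 also differed in Y-linked RNA from glycolytic Atf4 ECKO, which affects the muscle comparison in Atf4 ECKO and the interaction. Results on oxidative Atf4 ECKO are also given for its 2 kinds of library, which does not separate sex from genotype.

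Summed over the 35 members, oxidative wild type libraries had between 742 and 938 CPM, and the sum was 855 CPM ± 71.6 (SD, n = 5). Glycolytic wild type had 116 CPM ± 5.19, oxidative Atf4 ECKO 172 CPM ± 40.6 and glycolytic Atf4 ECKO 69.1 CPM ± 2.35. No library of the other groups passed 209.9 CPM, so the 5 oxidative wild type libraries did not overlap with any other. The members thus took at most 0.0887% of the counts of any library. In bulk RNA of sorted cells, fewer cells of a type and less RNA per cell cannot be told apart.

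**Figure D1:**
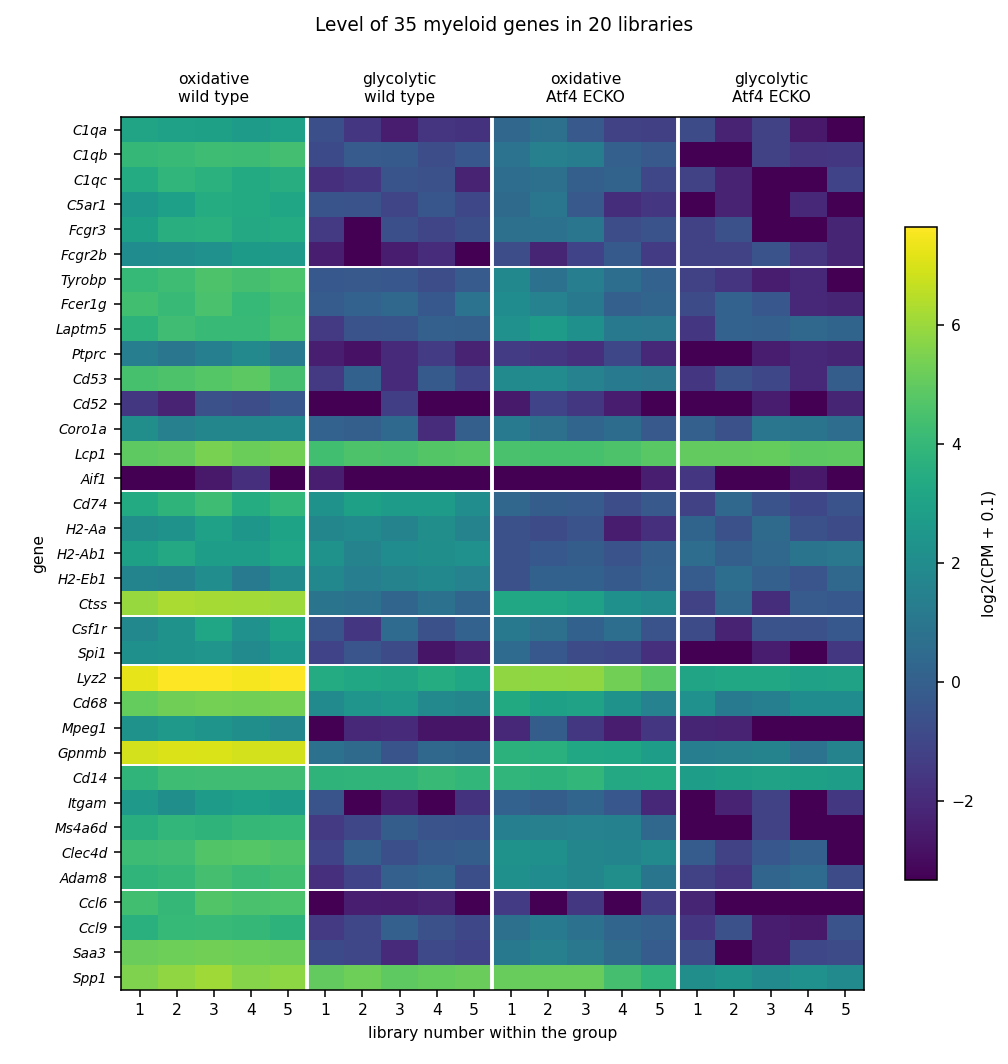
Colour shows log2(CPM + 0.1) of the 35 members (vertical axis, ordered by role) in the 20 libraries (horizontal axis, 5 per group). Most members are bright in oxidative wild type alone, while Lcp1, Cd14, Spp1 and the class II genes are also seen in wild type glycolytic muscle.

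In wild type, 31 of 33 members were called higher in oxidative than in glycolytic muscle and 0 lower, and 26 were called at 4-fold or more. Among all genes tested 32.4% were called, 16.4% as higher, 15.9% as lower and 1.67% as higher by 4-fold or more. The members' median log2 difference was 4.74, from 0.08 for H2-Eb1 to 8.28 for Ccl6, against -0.0033 for all genes tested. For 31 members every oxidative library lay above every glycolytic one, which held for 12.1% of all genes, and only Cd14 and H2-Eb1 overlapped. Comparing genotypes in oxidative muscle, all 33 were called lower in Atf4 ECKO, 27 of them at 4-fold or more, with a median log2 difference of -3.18; among all genes 32% were called, 14.6% as higher, 17.4% as lower and 1.35% as lower by 4-fold or more. Members were chosen with results of all 4 groups known, so nothing is read from these counts. The same holds for the member counts of the other comparisons below. Moreover, 10 of the 33 members passed the low-count filter through oxidative wild type alone, and such genes had to differ.

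Opsonins and their receptors come first. C1qa, C1qb and C1qc, neighbours on chr4, encode the chains of C1q, the complement protein that tags debris for uptake. C1qb was 15.7, 16.8, 18.9, 18.5 and 20.6 CPM in oxidative wild type and 0.444, 0.776, 0.77, 0.495 and 0.677 CPM in wild type glycolytic muscle. In oxidative Atf4 ECKO it was 1.7, 2.6, 2.36, 0.932 and 0.731 CPM, and the glycolytic Atf4 ECKO libraries held 0, 0, 0.341, 0.212 and 0.238 CPM. Every oxidative wild type library lay above all others, and oxidative Atf4 ECKO lay above glycolytic Atf4 ECKO. The log2 difference of C1qb between muscles was 4.80 ± 0.27 (SE) in wild type and 3.14 ± 0.47 in Atf4 ECKO, and the genotype difference was -3.50 ± 0.25 in oxidative and -1.84 ± 0.54 in glycolytic muscle. C1qa and C1qc had genotype differences in oxidative muscle of -3.30 and -3.57.

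C5ar1, the receptor of the complement fragment C5a, was 8.62 CPM ± 2.17 in oxidative wild type against at most 1.89 CPM in any other library. Fcgr3, an activating Fc receptor, was 10.3 CPM ± 1.95 in oxidative wild type, 0.342 CPM ± 0.221 in wild type glycolytic muscle, 1.24 CPM ± 0.638 in oxidative Atf4 ECKO and 0.205 CPM ± 0.242 in glycolytic Atf4 ECKO. Fcgr2b, the inhibitory Fc receptor, was 4.95 CPM ± 1.05, 0.0662 CPM ± 0.0692, 0.403 CPM ± 0.244 and 0.322 CPM ± 0.18 in the same order. It was the only gene of this role called higher in glycolytic Atf4 ECKO than in wild type glycolytic muscle, with a log2 difference of 2.27 ± 0.67 that rested on 17 against 5 counts and lost its call without glycolytic Atf4 ECKO library 3 (log2 difference 1.88). In the authors' transcript estimates, Fcgr2b-202 held 289.5 of 337.1 counts in oxidative wild type, whereas Fcgr2b-201 held 14.6 of 17.7 in glycolytic Atf4 ECKO. Fcgr3 and Fcgr2b share 2.54% and 1.4% of their stretches of 100 bases with each other or other genes, so their low values are uncertain.

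The adaptors Tyrobp and Fcer1g, which pass the receptor signal on, had the same order of group means as C1qb. Tyrobp (ENSMUSG00000030579.10, chr7:30413760-30417585, plus strand, GRCm38), the adaptor DAP12, was 16.4, 18.5, 23.6, 21.4 and 23.1 CPM in oxidative wild type and between 0.495 and 0.781 CPM in wild type glycolytic muscle. It was 3.39, 1.65, 2.48, 1.44 and 1.01 CPM in oxidative Atf4 ECKO and between 0 and 0.352 CPM in glycolytic Atf4 ECKO. The 4 groups did not overlap. Its log2 difference between genotypes was -3.37 ± 0.22 in oxidative muscle. The 2 transcripts of Tyrobp did not move together in the authors' estimates. Tyrobp-202 had 1348.7, 17, 88.8 and 0 counts in oxidative wild type, glycolytic wild type, oxidative Atf4 ECKO and glycolytic Atf4 ECKO. Tyrobp-201 had 33.9, 40, 53.2 and 8 in the same order, so it was not lower in oxidative Atf4 ECKO. Fcer1g, the shared gamma chain of Fc receptors, was 19.1 CPM ± 2.59, 1.08 CPM ± 0.397, 2.16 CPM ± 1.23 and 0.481 CPM ± 0.372 in oxidative wild type, glycolytic wild type, oxidative Atf4 ECKO and glycolytic Atf4 ECKO.

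Ptprc (ENSMUSG00000026395.16, chr1:138062861-138175708, minus strand, GRCm38), which encodes the CD45 used in the sort, was 2.44, 1.9, 2.59, 3.46 and 2.26 CPM in oxidative wild type, and no library of the other groups passed 0.424 CPM. The transcript of the protein that the gate was meant to leave out was thus among the members that were high in oxidative wild type. Per length, its level was 0.773 TPM ± 0.135 there, the 34th of the 35 members, while Pecam1 had 558 TPM ± 15.7 in the same libraries. Laptm5, a lysosomal protein of white blood cells, and Cd53, a tetraspanin of theirs, were 17.5 CPM ± 3.04 and 24.6 CPM ± 3.45 in oxidative wild type. Both were lower in oxidative Atf4 ECKO, at 3.91 CPM ± 1.91 and 2.87 CPM ± 0.842, and at most 1.2 CPM in each glycolytic library. Coro1a, an actin regulator, spread less, from 3.31 CPM ± 0.547 in oxidative wild type to 0.835 CPM ± 0.399 in wild type glycolytic muscle. It was 1.38 CPM ± 0.545 in oxidative and 1.31 CPM ± 0.558 in glycolytic Atf4 ECKO, both above glycolytic wild type in the mean.

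Unlike these genes, Lcp1, which encodes the actin bundler L-plastin, was not low outside oxidative wild type. Its levels were 29.9, 32.1, 43.7, 36.5 and 39.1 CPM in oxidative wild type, and 20.2, 23.9, 22.5, 25.8 and 28 CPM in wild type glycolytic muscle. Oxidative Atf4 ECKO had 22.3, 21.9, 21.8, 23.7 and 28.5 CPM, and glycolytic Atf4 ECKO 32.4, 31.9, 33.6, 29.5 and 30.3 CPM. Lcp1 was thus present at 20.2 CPM or more in every library, and it went in opposite directions with genotype in the 2 muscles, with log2 differences of -0.61 ± 0.10 in oxidative and 0.38 ± 0.10 in glycolytic muscle. Cd52 and Aif1, the genes too low to test, had at most 30 and 4 counts summed over the 5 libraries of any group.

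**Figure D2:**
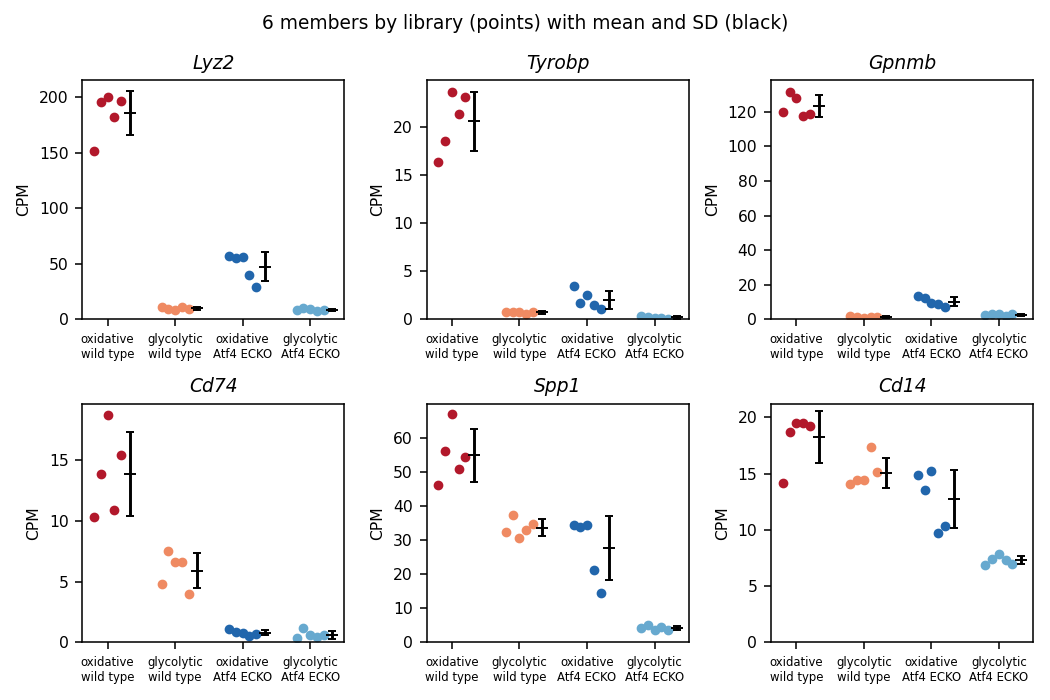
Points are libraries and black marks the mean with SD (n = 5) of CPM for 6 members in the 4 groups, with every axis starting at 0. Lyz2, Tyrobp and Gpnmb are far higher in oxidative wild type than elsewhere, Cd74 is high in both wild type groups, and Spp1 and Cd14 are lowest in glycolytic Atf4 ECKO.

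Class II genes showed a different order. H2-Aa, H2-Ab1 and H2-Eb1 encode chains of the class II molecule, and Cd74 encodes the invariant chain that guides it. Cd74 was 10.3, 13.9, 18.7, 10.9 and 15.4 CPM in oxidative wild type and 4.8, 7.53, 6.63, 6.6 and 4.01 CPM in wild type glycolytic muscle. It was 1.13, 0.827, 0.788, 0.509 and 0.731 CPM in oxidative Atf4 ECKO and 0.352, 1.22, 0.596, 0.423 and 0.594 CPM in glycolytic Atf4 ECKO. Both wild type muscles lay above both Atf4 ECKO groups, which overlapped each other. The genotype difference of Cd74 was -4.10 ± 0.25 in oxidative and -3.24 ± 0.28 in glycolytic muscle.

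H2-Aa was 6.06 CPM ± 1.7 in oxidative and 3.37 CPM ± 0.55 in wild type glycolytic muscle, against 0.382 CPM ± 0.235 and 0.785 CPM ± 0.358 in the Atf4 ECKO groups. H2-Ab1 was 7.99 CPM ± 1.2 and 4.1 CPM ± 0.765 in wild type, and 0.726 CPM ± 0.153 and 1.45 CPM ± 0.45 in Atf4 ECKO. For H2-Eb1 the 2 wild type muscles overlapped, at 3.15 CPM ± 0.724 and 3 CPM ± 0.399, and Atf4 ECKO had 0.85 CPM ± 0.184 and 1 CPM ± 0.316. The 4 genes summed to between 25.1 and 37.5 CPM in oxidative wild type, 14.4 and 18.5 CPM in wild type glycolytic muscle, 1.95 and 3.21 CPM in oxidative Atf4 ECKO, and 3.39 and 4.28 CPM in glycolytic Atf4 ECKO. For this sum, the glycolytic libraries of Atf4 ECKO were thus above the oxidative ones, the reverse of wild type. By gene, only H2-Ab1 was called between muscles in Atf4 ECKO (log2 difference, oxidative minus glycolytic, -0.96 ± 0.26). H2-Aa (-1.06 ± 0.42) and H2-Eb1 (-0.20 ± 0.29) were not called, and Cd74 went the other way without a call (0.36 ± 0.37). The sum of the other 28 members, without these 4 and without Lcp1, Cd14 and Spp1, was higher in oxidative muscle in both genotypes.

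Ctss encodes cathepsin S, the protease that trims the invariant chain in antigen-presenting cells. Its levels were 62.3, 75.7, 72.2, 69.3 and 64.7 CPM in oxidative wild type and between 1.08 and 1.78 CPM in wild type glycolytic muscle. In oxidative Atf4 ECKO they were 9.26, 8.86, 7.63, 4.41 and 3.66 CPM, and glycolytic Atf4 ECKO had between 0.17 and 1.22 CPM. Ctss followed the complement genes rather than the class II chains, with a log2 difference between wild type muscles of 5.59 ± 0.21 against 1.22 ± 0.19 for Cd74. In glycolytic muscle it was called lower in Atf4 ECKO, at -1.15 ± 0.42, a call lost without any 1 of glycolytic Atf4 ECKO libraries 1, 3, 4 and 5 or glycolytic wild type libraries 1, 2 and 4 (log2 differences from -0.89 to -1.27).

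Other genes of the class II pathway, none a member, were tested as well. Of 11 on the list, 8 could be tested. In oxidative against glycolytic wild type 1 was called higher (Lgmn, a lysosomal protease), 0 lower and 7 were not called, against 32.4% of all genes called. In oxidative muscle 2 fell in Atf4 ECKO, Lgmn (log2 difference -0.61 ± 0.10, edgeR adjusted p = 1.9e-05) and H2-DMb1, a chain of the peptide-loading protein DM (-1.52 ± 0.41, adjusted p = 0.0052), while Rfxank, a subunit of the X box factor RFX, rose (0.26 ± 0.08, adjusted p = 0.015), which makes 3 of 8 called against 32% of all genes. H2-DMb1 had 1.16 CPM ± 0.371 and 1.95 CPM ± 0.348 in oxidative and glycolytic wild type, and 0.394 CPM ± 0.188 and 0.336 CPM ± 0.224 in Atf4 ECKO. It also fell in glycolytic Atf4 ECKO (-2.48 ± 0.42, adjusted p = 5.4e-05), and its call in oxidative muscle, like that of Rfxank, was lost with the 2 libraries without Y-linked RNA alone. The call of Rfxank was also lost without the low-count filter.

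Csf1r and Spi1, the receptor and the transcription factor of the lineage, were low in absolute terms and highest in oxidative wild type. Csf1r was 3.34, 4.74, 8.59, 4.52 and 8.03 CPM there, and Spi1 was 4.4, 4.74, 5.1, 3.71 and 5.69 CPM. In glycolytic wild type they were 0.74 CPM ± 0.418 and 0.323 CPM ± 0.245, and in oxidative Atf4 ECKO 1.32 CPM ± 0.558 and 0.629 CPM ± 0.441. No library outside oxidative wild type reached the lowest oxidative wild type value of either gene. Spi1 had 3 counts in all glycolytic Atf4 ECKO libraries together.

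Among the lysosomal genes were the members with the highest CPM in oxidative wild type, Lyz2 and Gpnmb. Lyz2 (ENSMUSG00000069516.8, chr10:117277331-117282321, minus strand, GRCm38) encodes lysozyme M of macrophages, monocytes and neutrophils, and had 152, 196, 199.8, 182 and 197 CPM in oxidative wild type. Glycolytic wild type had 10.8, 9.17, 8.24, 10.9 and 8.59 CPM, oxidative Atf4 ECKO 56.8, 55.1, 56.2, 39.9 and 28.4 CPM, and glycolytic Atf4 ECKO 8.32, 9.52, 9.11, 7.55 and 7.85 CPM. The 2 glycolytic groups overlapped, and oxidative Atf4 ECKO lay between them and oxidative wild type. The genotype difference of Lyz2 was -1.98 ± 0.13 in oxidative muscle, which was -1.71 with the 3 libraries that carry Y-linked RNA and -2.47 with the 2 that do not. Lyz2 shares 1.97% of its stretches of 100 bases with its copy Lyz1, which had at most 1.26 CPM in the wild type oxidative libraries.

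Gpnmb (ENSMUSG00000029816.10, chr6:49036546-49070929, plus strand), a glycoprotein of lysosomes and the cell surface in activated macrophages, was 120, 132, 128, 118 and 119 CPM in oxidative wild type. It was 1.6, 1.28, 0.616, 1.15 and 1.04 CPM in wild type glycolytic muscle, 13.3, 12.2, 9.45, 8.82 and 6.95 CPM in oxidative Atf4 ECKO, and 2.46, 2.66, 2.9, 1.69 and 2.85 CPM in glycolytic Atf4 ECKO. The groups did not overlap, and glycolytic Atf4 ECKO was above glycolytic wild type, with a log2 difference of 1.11 ± 0.26. Cd68, a lysosomal membrane protein, was 38.4 CPM ± 3, 4.27 CPM ± 1.24, 6.58 CPM ± 2.87 and 3.41 CPM ± 1.03 in oxidative wild type, glycolytic wild type, oxidative Atf4 ECKO and glycolytic Atf4 ECKO. Mpeg1, the pore-forming perforin-2, was 4.63 CPM ± 0.952 in oxidative wild type and at most 0.827 CPM elsewhere.

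Surface receptors split in the same way. Ms4a6d, Clec4d, a lectin receptor for microbial lipids, and Adam8, a surface protease, were 14.7 CPM ± 1.73, 22.7 CPM ± 3.57 and 17.8 CPM ± 2.68 in oxidative wild type. Their log2 differences between genotypes in oxidative muscle were -2.65 ± 0.24, -2.59 ± 0.20 and -2.38 ± 0.25. Itgam, the integrin chain CD11b, was 6.1 CPM ± 1.11 in oxidative wild type and 0.745 CPM ± 0.374 in oxidative Atf4 ECKO; 64.3% of the stretches of 100 bases of Itgam also occur in the overlapping gene model Gm49368, so its counts are uncertain.

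Cd14, the coreceptor for bacterial lipopolysaccharide, did not follow these genes. It was 14.2, 18.7, 19.5, 19.5 and 19.3 CPM in oxidative wild type and 14, 14.4, 14.4, 17.4 and 15.1 CPM in wild type glycolytic muscle. Oxidative Atf4 ECKO had 14.9, 13.6, 15.3, 9.75 and 10.4 CPM, and glycolytic Atf4 ECKO 6.92, 7.42, 7.84, 7.33 and 7.01 CPM. The 2 wild type groups overlapped, and glycolytic Atf4 ECKO lay below all other libraries. Its genotype difference was -0.52 ± 0.12 in oxidative and -1.04 ± 0.13 in glycolytic muscle. Between the wild type muscles Cd14 was not called, and a call appeared without oxidative wild type library 1 (log2 difference 0.36 against 0.27), without glycolytic wild type library 4 (0.33) or without oxidative Atf4 ECKO library 4 (0.28).

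Among the secreted factors, the chemokine Ccl6 had the widest difference. It was 20.2, 15.8, 25.1, 22.2 and 23 CPM in oxidative wild type, a sum of 1447 counts. The counts summed over 5 libraries were 5 in wild type glycolytic muscle, 14 in oxidative Atf4 ECKO and 1 in glycolytic Atf4 ECKO. Its log2 differences of 8.28 ± 0.34 between wild type muscles and -6.74 ± 0.30 between genotypes therefore rest on few counts on the low side. The coding transcript Ccl6-201 had 847.3 estimated counts in oxidative wild type against 0 in wild type glycolytic muscle and 3.6 in oxidative Atf4 ECKO, and the retained intron form Ccl6-202 had 597.2, 4 and 10.4. Its neighbour Ccl9, another chemokine, was 14.8 CPM ± 1.79 in oxidative wild type and 1.47 CPM ± 0.477 in oxidative Atf4 ECKO, so it was kept in part where Ccl6 was near 0.

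Saa3, an acute phase protein made by macrophages and other cells, was 34.6, 37.4, 39.3, 37 and 36.6 CPM in oxidative wild type and 2.05, 2.6, 2, 1.27 and 0.823 CPM in oxidative Atf4 ECKO. Glycolytic wild type had at most 0.444 CPM and glycolytic Atf4 ECKO at most 0.476 CPM. The 2 annotated transcripts did not move together in the authors' estimates. Saa3-201 had 2454.8 counts in oxidative wild type, 95.9 in oxidative Atf4 ECKO, 16.8 in wild type glycolytic muscle and 0 in glycolytic Atf4 ECKO. The longer Saa3-202 had 9.6, 22.4, 9.8 and 14.9 counts in the same order, so the Saa3 counts of glycolytic Atf4 ECKO were all assigned to it.

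Spp1 encodes osteopontin, a secreted adhesion protein made by activated macrophages and other cells. Of its stretches of 100 bases, 5.85% also occur in the overlapping gene model Gm42793. It was 46.1, 56, 66.8, 50.7 and 54.4 CPM in oxidative wild type and 32.4, 37.4, 30.7, 33 and 34.8 CPM in wild type glycolytic muscle. Oxidative Atf4 ECKO had 34.5, 33.7, 34.4, 21.2 and 14.6 CPM, and glycolytic Atf4 ECKO 4.22, 4.98, 3.58, 4.58 and 3.57 CPM. Like Cd14, Spp1 was well above 0 in wild type glycolytic muscle and lowest in glycolytic Atf4 ECKO, with a genotype difference of -3.00 ± 0.21 in glycolytic muscle against -1.0 ± 0.15 in oxidative muscle. In oxidative muscle that difference was -0.67 with the 3 libraries that carry Y-linked RNA and -1.65 with the 2 that do not.

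**Figure D3:**
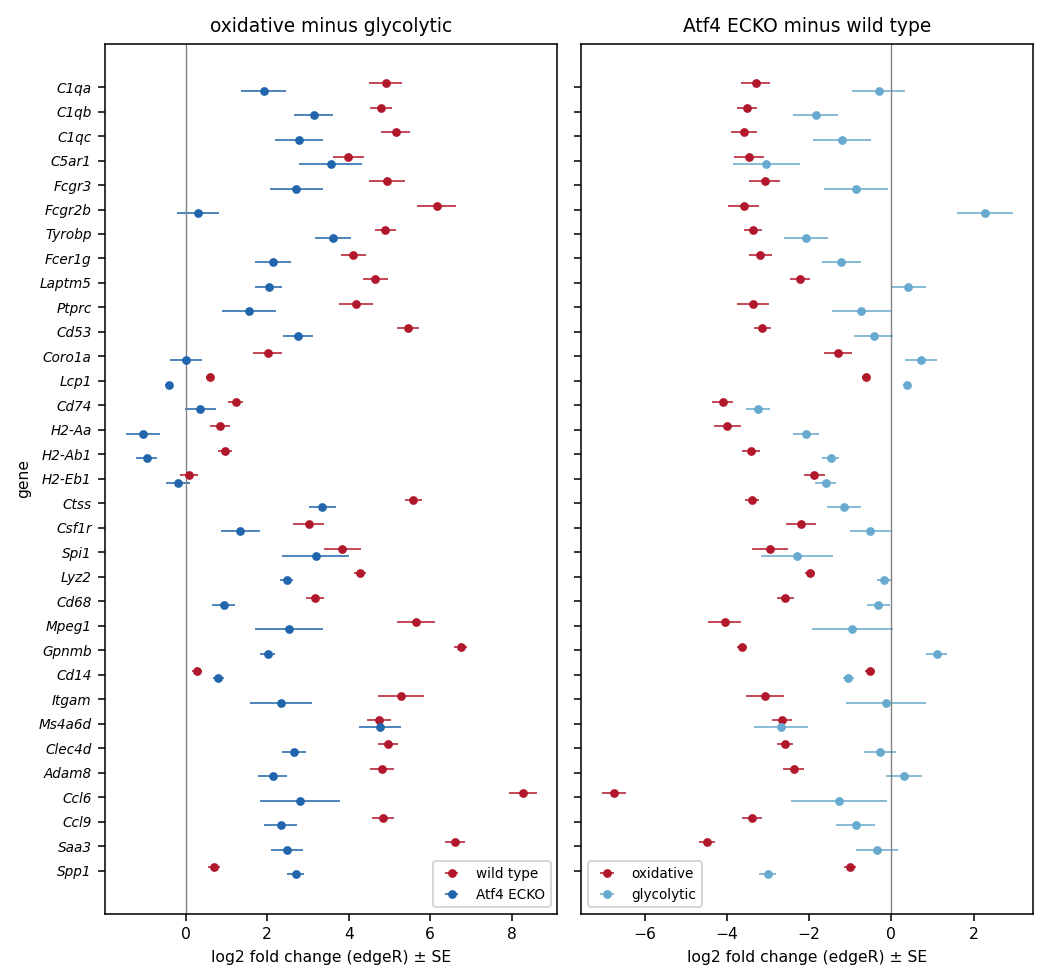
Points are log2 fold changes with SE of the 33 tested members, between muscles in each genotype (left) and between genotypes in each muscle (right). The 33 values for oxidative muscle on the right are all below 0, while those for glycolytic muscle lie on both sides of 0 and are lowest for Cd74 and C5ar1.

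Levels per length, as summed TPM, show how the makeup of the group differed. In oxidative wild type Lyz2 made up 21.6% of the members' TPM, Saa3 13.1%, Ctss 7.97%, Spp1 6.12% and Tyrobp 5.99%. In glycolytic wild type Spp1 came first with 31.4%, before Cd14 with 13.1% and Lyz2 with 9.31%. Lyz2 was first in oxidative Atf4 ECKO with 30.4%, where Saa3 held 3.01%. Lcp1 was first in glycolytic Atf4 ECKO with 23.2%, followed by Lyz2 with 17.4% and Cd14 with 14%. The genes with the largest shares were thus not the same in the 4 groups.

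In glycolytic muscle the genotypes differed for fewer members. There 3 members were called higher in Atf4 ECKO (Lcp1, Fcgr2b, Gpnmb) and 11 lower, against 29% of all genes called, 13.9% as higher and 15.1% as lower. The 11 were Cd74, H2-Aa, H2-Ab1, H2-Eb1, Ctss, C1qb, C5ar1, Tyrobp, Ms4a6d, Cd14 and Spp1. The median log2 difference was -0.86 against 0.004 for all genes tested. Without overlap between the genotypes, 2 members lay above and 9 below, as did 10.6% and 11.9% of all genes, and 22 members overlapped. C5ar1, Ms4a6d, Tyrobp and C1qb rested on 3, 4, 8 and 9 counts in glycolytic Atf4 ECKO.

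Within Atf4 ECKO, 25 members were called higher in oxidative than glycolytic muscle and 2 lower (Lcp1 and H2-Ab1), against 18.4% of all genes called, 8.31% as higher and 10.1% as lower. The median log2 difference was 2.33, and 16 members lay above without overlap, as did 5.66% of all genes. The interaction, which asks whether the genotype difference depended on the muscle, was called for 19 members, 17 lower and 2 higher (Spp1 and Cd14), against 22.6% of all genes called, 12.5% as lower and 10.1% as higher. The wild type and Atf4 ECKO comparisons of muscles share no library. Members were nevertheless chosen with results of all 4 groups known, so the Atf4 ECKO counts are descriptions and no independent support. In addition, 10 of the 33 members passed the low-count filter through oxidative wild type alone.

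Libraries of oxidative Atf4 ECKO differed among themselves. The 28 members without the class II genes, Lcp1, Cd14 and Spp1 summed to between 61.1 and 135 CPM there, against 627 to 771 CPM in oxidative wild type. Of 30 members with at least 20 counts in this group, 20 were higher in each of libraries 1 to 3, which carry Y-linked RNA, than in libraries 4 and 5, 1 was lower (Lcp1) and 9 overlapped. Among all genes tested 18.6% were higher and 20% lower in that way. Library 5 was the lowest for 19 of the 30, and library 1 the highest for 13.

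Fibroblast RNA ran the other way in the same libraries. Col1a1, a collagen gene of fibroblasts, was between 13.8 and 55.1 CPM in libraries 1 to 3 and between 97.6 and 109 CPM in libraries 4 and 5. The 12 fibroblast genes summed to between 67.7 and 463 CPM in oxidative Atf4 ECKO and between 154 and 369 CPM in oxidative wild type, against 59.7 to 70.1 CPM and 131 to 139.7 CPM in wild type glycolytic muscle and Atf4 ECKO. Muscle fibre genes summed to 165 CPM ± 53.6, 60.4 CPM ± 1.9, 258 CPM ± 35.4 and 149.99 CPM ± 3.52 in oxidative wild type, glycolytic wild type, oxidative Atf4 ECKO and glycolytic Atf4 ECKO. Erythroid and platelet genes, which mark blood, moved in the same direction as the members. Of 7 tested, 6 were higher in oxidative than glycolytic wild type, against 16.4% of all genes. In Atf4 ECKO 5 fell in oxidative and 5 in glycolytic muscle, against 17.4% and 15.1% of all genes, with 0 in the other direction in each comparison. The 10 genes of that list summed to 5402 CPM ± 957, 3862 CPM ± 87.3, 3369 CPM ± 861 and 2327 CPM ± 95.7 in the same order of groups. The part of these cells, or of blood, in the members' differences was not tested. Against oxidative wild type, all 33 members were called lower with the 3 libraries that carry Y-linked RNA (median log2 difference -2.77) and with the 2 that do not (-3.89). Members were chosen on this contrast and both fits used the same wild type libraries, so nothing is read from these calls. An effect of sex was not tested. Against glycolytic Atf4 ECKO, 25 members were called higher and 2 lower with the 3, at a median of 2.64, and 15 higher and 1 lower with the 2, at a median of 1.65.

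**Figure D4:**
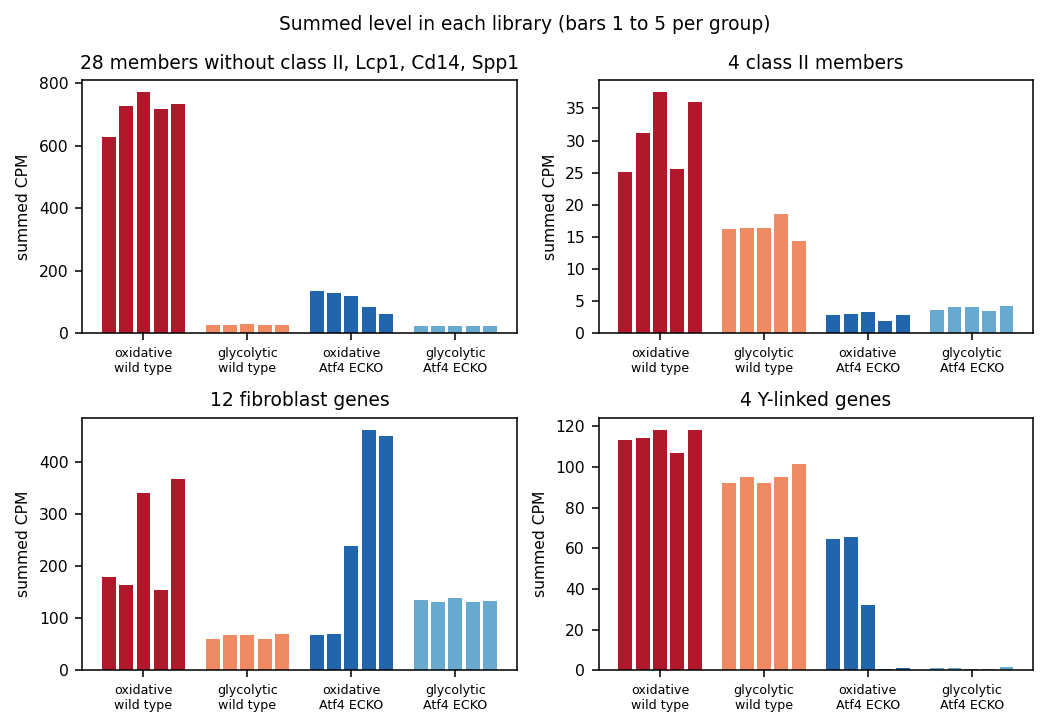
Bars are summed CPM in each of the 5 libraries of a group for 28 members, the 4 class II members, 12 fibroblast genes and 4 Y-linked genes (Ddx3y, Uty, Kdm5d, Eif2s3y). Within oxidative Atf4 ECKO the 28 members are lower, and the fibroblast genes higher, in libraries 4 and 5, where Y-linked RNA is near 0.

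Genes of white blood cells outside the members were on 12 lists of 171 genes, of which 76 had enough counts. Of the 76, 23 passed the low-count filter through oxidative wild type alone, so they had to differ and nothing is read from their calls. Among the other 53, 26 were higher and 7 lower in oxidative than glycolytic wild type (49.1% and 13.2%, against 16.4% and 15.9% of all genes), with a median log2 difference of 0.34. With all 76 the counts were 49 and 7 and the median 1.59. In oxidative muscle 30 of the 53 fell and 7 rose in Atf4 ECKO (56.6% and 13.2%, against 17.4% and 14.6% of all genes), with a median of -0.55, and with all 76 the counts were 52 and 7 and the median -1.31. In glycolytic muscle 12 fell and 7 rose (22.6% and 13.2%), near the 15.1% and 13.9% of all genes. Within Atf4 ECKO 17 were higher and 7 lower in oxidative muscle (32.1% and 13.2%, against 8.31% and 10.1%).

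Of 15 pan-leukocyte genes tested, 7 passed the filter through oxidative wild type alone. Among the other 8, 7 were higher in oxidative than glycolytic wild type and 0 lower, and 5 fell with 0 higher in oxidative Atf4 ECKO. For this list and those that follow, 16.4% of all genes were higher and 15.9% lower between wild type muscles. In oxidative Atf4 ECKO 17.4% of all genes fell and 14.6% rose. Itgb2, the integrin chain CD18, was 11.3 CPM ± 1.56 in oxidative wild type, 0.558 CPM ± 0.252 in wild type glycolytic muscle and 1.62 CPM ± 0.772 in oxidative Atf4 ECKO, with a genotype difference of -2.83 ± 0.30 (edgeR adjusted p = 3.2e-08). Plek, a protein kinase C substrate, fell by 1.29 on the log2 scale (adjusted p = 1.9e-06). Nckap1l and Rac2, which passed through oxidative wild type alone, were 3.78 CPM ± 1.29 and 3.01 CPM ± 0.936 there and 0.836 CPM ± 0.323 and 0.695 CPM ± 0.332 in oxidative Atf4 ECKO.

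Of 13 tested genes of Fc and ITAM receptor signalling, 6 passed the filter in that way. Among the other 7, 2 were higher and 1 lower between wild type muscles, and 4 fell and 3 rose in oxidative Atf4 ECKO. The gene lower between wild type muscles was the kinase Lyn (log2 difference -0.27), and those that rose were Lyn (0.21), the adaptor Hcst (0.89) and the phosphatase Inpp5d (0.32, not called with the 2 libraries without Y-linked RNA alone). Pirb, an inhibitory receptor, fell by 2.37 on the log2 scale (edgeR adjusted p = 2.6e-08). Clec4n, a lectin receptor that passed through oxidative wild type alone, was 6.09 CPM ± 1.25 there and 0.88 CPM ± 0.377 in oxidative Atf4 ECKO.

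Of 9 resident macrophage genes tested, 3 passed the filter through oxidative wild type alone. Among the other 6, 5 were higher and 1 lower between wild type muscles, and all 6 fell in oxidative Atf4 ECKO. The exception between muscles was Cbr2, a carbonyl reductase (log2 difference -1.15). F13a1, the A chain of factor XIII, was 10.9 CPM ± 1.81, 0.719 CPM ± 0.219 and 1.48 CPM ± 0.292 in oxidative wild type, glycolytic wild type and oxidative Atf4 ECKO, and Trem2, a lipid receptor that signals through Tyrobp, was 8.51 CPM ± 1.35, 0.426 CPM ± 0.298 and 0.854 CPM ± 0.185. Pf4, a platelet and macrophage chemokine, fell by 2.08 on the log2 scale in oxidative Atf4 ECKO (edgeR adjusted p = 1.3e-09). Adgre1, which encodes the macrophage marker F4/80, passed through oxidative wild type alone, where it was 2.98 CPM ± 1.11. It was at most 0.165 CPM in any glycolytic wild type library and 0.604 CPM ± 0.576 in oxidative Atf4 ECKO. Of the 17 genes on the list, 7 were under 1 CPM in all 20 libraries.

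Lipid and lysosome genes of activated macrophages, many of which other cells also express, included 13 that did not pass through oxidative wild type alone. Of these, 7 were higher and 3 lower (Lipa, Apoe, Cd9) between wild type muscles, and 9 fell and 1 rose in oxidative Atf4 ECKO. Lgals3, which encodes galectin-3, was 177 CPM ± 10.6 in oxidative and 53.5 CPM ± 4.59 in wild type glycolytic muscle and fell by 1.91 on the log2 scale in oxidative Atf4 ECKO (edgeR adjusted p = 5.7e-17). The gene that rose was Lpl, lipoprotein lipase, by 1.19 ± 0.08 (adjusted p = 1.5e-12). Of 6 such inflammatory macrophage genes, 4 were higher and 1 lower (Nos2) between wild type muscles, and 4 fell and 1 rose (Ccrl2, not called without oxidative wild type library 1) in oxidative Atf4 ECKO. The chemokine Cxcl2 was 31 CPM ± 3 in oxidative wild type, 4.44 CPM ± 0.832 in wild type glycolytic muscle and 9.31 CPM ± 2.23 in oxidative Atf4 ECKO. The cytokine Tnf fell by 1.34 and Ptgs2, cyclooxygenase 2, by 3.40 on the log2 scale. Which cells made the RNA of these inflammatory genes was not tested.

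Markers of other white blood cells were mostly near 0. All 9 B cell genes were under 1 CPM in each library, as were 12 of 14 T and NK cell genes, 12 of 15 neutrophil genes, 12 of 14 mast cell and eosinophil genes, 9 of 10 dendritic cell genes and 10 of 13 monocyte genes. S100a8, a defining neutrophil gene, had at most 0.326 CPM, and Cd3e of T cells, Cd79a of B cells and Cpa3 of mast cells averaged at most 0.0337, 0.317 and 0.0163 CPM in any group. Mmp8 of the neutrophil list and Il7r of the T cell list passed the filter through oxidative wild type alone, where they were 4.33 CPM ± 0.901 and 2.49 CPM ± 0.704, against 0.528 CPM ± 0.394 and 0.329 CPM ± 0.147 in oxidative Atf4 ECKO. Chil3 of the monocyte list fell by 1.33 on the log2 scale in oxidative Atf4 ECKO (edgeR adjusted p = 0.00095). Ly6c2, a monocyte marker, went the other way: it was 3.54 CPM ± 1.03 in oxidative wild type, 5.93 CPM ± 1.1 in wild type glycolytic muscle and 7.41 CPM ± 1.49 in oxidative Atf4 ECKO, and rose there by 1.04 ± 0.19 (adjusted p = 0.00012).

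**Figure D5:**
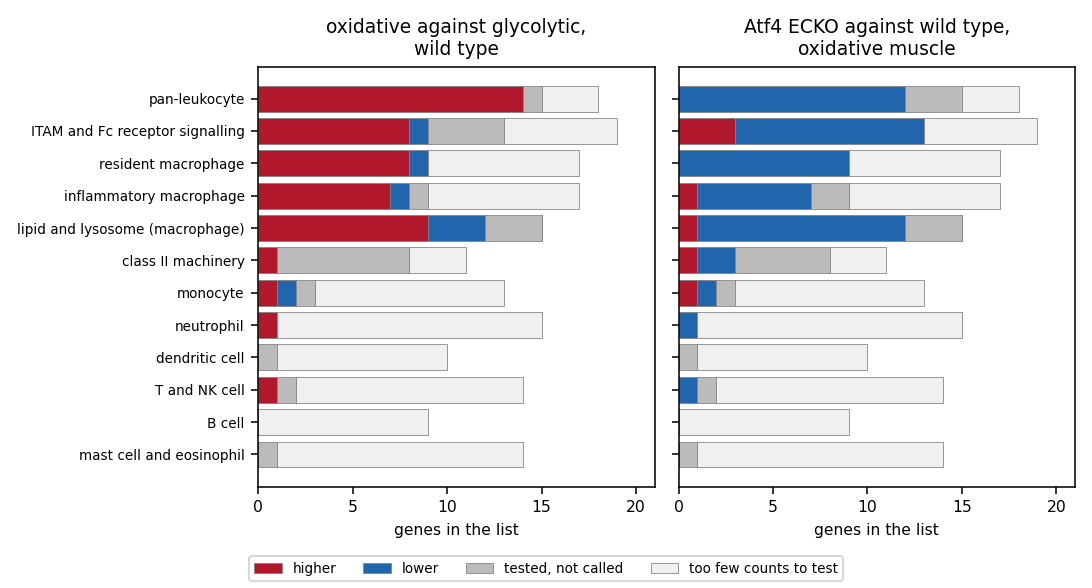
Bars give the number of genes on 12 white blood cell lists, none of them members, that were called higher, called lower, tested but not called, or too low to test, for the wild type muscles (left) and the genotypes in oxidative muscle (right). The counts include the 23 genes that passed the low-count filter through oxidative wild type alone. Pan-leukocyte genes have 14 higher on the left and 12 lower on the right, and none of the 9 B cell genes could be tested.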

How the data were processed

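Endothelial cells of the 4 groups were sequenced as stranded poly(A) libraries, read from 1 end over 100 bases, per the labels' protocols. Each library has a table in which the authors deposited estimated counts and TPM of each transcript. The submitters' processing notes name kallisto and DESeq2 without versions and the human build GRCh38.p13, although the identifiers are those of mouse transcripts. Of 129439 transcripts, 128643 were found in GENCODE M21 on GRCm38, 128254 with the same length, and at most 0.221% of a library's counts had no match. Strand handling was not given in the sources used here, so members with an antisense neighbour (Fcgr2b, Cd52, Coro1a, Lcp1, H2-Eb1, Csf1r, Adam8, Ccl6) are uncertain to that extent.

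Estimated counts were summed per gene and rounded to whole numbers, and deposited TPM were summed per gene. The tests were quasi-likelihood tests from edgeR 4.0.16 (R 4.3.3). TMM factors and filterByExpr were used, the 20 libraries entered a single model with a mean for each group, and p-values were Benjamini-Hochberg adjusted over 13971 genes. The SE of a log2 difference is its size divided by the square root of its F statistic. The method was tested on simulated data for the wild type muscle comparison alone, with changes added in oxidative wild type. That simulation did not model genes nearly absent outside oxidative wild type, so it gives no precision for such members or for the other comparisons. All 40 pairs of libraries within groups differed by more than counting noise (chi-square per degree of freedom 2.64 to 27.6).

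The members and the 19 lists were chosen with earlier results of these data known. The text may name all members, up to 4 genes of each list with the smallest adjusted p in the wild type muscle comparison or the oxidative genotype comparison, and the defining genes of each cell type. Cbr2, Lyn, Hcst, Inpp5d, Lipa, Apoe, Cd9, Nos2, Ccrl2 and Lyz1 fall outside it and were picked with their values in view. Alternatives were RLE factors, no filter, DESeq2 1.42.0, limma-voom (limma 3.58.1), fits of only the groups compared, blocking on replicate number, the 2 kinds of oxidative Atf4 ECKO library, and leaving out each library. Estimated transcript counts carry no interval here, and low counts limit the precision of members outside oxidative wild type.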

Additional observations from a re-analysis of the deposited data

Results flagged for a closer look

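In 6 of 110 sets of 5 libraries, 1 library stood far from the other 4 by Dixon's test (critical value 0.71), and chance alone gives about 1 in 20. Cd14 was 14.2 CPM in oxidative wild type library 1, against 18.7 to 19.5 CPM in the others of its group. Cd68 was 33.3 CPM in the same library, against 38.7 to 40.9 CPM. Saa3 was 0.154 CPM in glycolytic wild type library 3, against 0.364 to 0.444 CPM. Ms4a6d was 1.19 CPM in oxidative Atf4 ECKO library 5, against 2.54 to 2.85 CPM. In glycolytic Atf4 ECKO, Laptm5 was 0.234 CPM in library 1, against 0.937 to 1.2 CPM, and Cd74 was 1.22 CPM in library 2, against 0.352 to 0.596 CPM.

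For 19 members the genotype difference in oxidative muscle differed from that in glycolytic muscle by the interaction of the edgeR fit, whose log2 values are descriptions because the members were chosen on these libraries. The interaction was positive for Spp1 (2.0) and Cd14 (0.53), both of which were lowered more in glycolytic muscle. For Cd14 the call was lost without any 1 of glycolytic Atf4 ECKO library 1, glycolytic wild type library 4, oxidative Atf4 ECKO libraries 1 and 3 and oxidative wild type library 1 (0.44 to 0.50). It was also lost with limma-voom (0.49) and with the 2 oxidative Atf4 ECKO libraries without Y-linked RNA alone (0.19). The interaction was most negative for Fcgr2b (-5.87), Gpnmb (-4.74) and Saa3 (-4.13). C1qa (-2.99), Cd53 (-2.71), Adam8 (-2.68), Laptm5 (-2.62), Ccl9 (-2.51), Clec4d (-2.31), Cd68 (-2.25), Ctss (-2.23) and Coro1a (-2.01) followed. Fcer1g (-1.97), H2-Ab1 (-1.92), H2-Aa (-1.91), Lyz2 (-1.81) and Lcp1 (-0.99) were the closest to 0 of the negative values. The calls of C1qa (without glycolytic Atf4 ECKO library 1 or 3) and Fcer1g (without library 2 or 3 of that group) were lost as well. Several of these rest on under 20 counts in a glycolytic group.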

How the results depend on the processing

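Over the 28 alternatives, 3273 of 3347 recomputed log2 differences of called members stayed within the spread between libraries, 74 moved beyond it and 0 reversed; 40 of the 74 came from the 2 oxidative Atf4 ECKO libraries without Y-linked RNA alone. A fit of the compared groups alone called 9 members, of 13 tested, between genotypes in glycolytic muscle (14 with all libraries), and 16, of 18 tested, between muscles in Atf4 ECKO (27 with all libraries), since fewer members pass the filter without oxidative wild type. It called 20 other leukocyte genes, of 46 tested, between muscles in Atf4 ECKO (31 with all libraries). The 2 libraries without Y-linked RNA alone gave 16 members in that comparison, from fewer libraries. No other alternative changed a count of members, of other leukocyte genes or of all genes by more than 1.5 times.

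Leaving out 1 library gave 31 to 32 members between wild type muscles, 33 to 33 between genotypes in oxidative muscle, 12 to 16 between genotypes in glycolytic muscle, 22 to 27 between muscles in Atf4 ECKO and 18 to 21 for the interaction. The calls between muscles in Atf4 ECKO that were lost without 1 library or another were those of C1qa, Ccl6, Cd68, Csf1r, Itgam and Mpeg1, while that of H2-Aa appeared without oxidative Atf4 ECKO library 3. Between genotypes in glycolytic muscle, calls of Fcer1g and Spi1 appeared in several such fits and those of Ctss and Fcgr2b were lost. Over all genes the ranges were 4072 to 4650, 4058 to 4507, 3553 to 4170, 2161 to 2617 and 2927 to 3218 in the same order. Other leukocyte genes, the 23 that passed the filter through oxidative wild type alone included, gave 56 to 60 between wild type muscles, 57 to 62 between genotypes in oxidative muscle and 23 to 32 between muscles in Atf4 ECKO.

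No pairing by replicate number was seen. Deviations of libraries with the same number correlated between -0.0585 and 0.0996, and 6 of 20 libraries correlated best with their own number. Such correlations cannot exclude shared animals, and the sources used here do not say what the numbers stand for. With the replicate number as a block, 31, 33, 15, 26 and 19 members were called in the same order of comparisons, with 4388, 4332, 3969, 2442 and 3064 of all genes, and 56, 58 and 29 other leukocyte genes. Depth limits the members near 0 outside oxidative wild type, where fitted differences depend on the prior count.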
